A study of Mus musculus with 4 samples.

Results

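The proteasome genes described here were taken from the table by symbol. Every row whose symbol began with Psm, a letter from a to g and a digit was a member, apart from the immunoproteasome genes Psmb8, Psmb9 and Psmb10. The rule gave 47 of 17194 rows. Of these, 45 encode subunits, assembly chaperones or regulators of the proteasome. The others were Psmc3ip, which encodes a cofactor of meiotic recombination and not a proteasome component, and Psmb7-ps2, a transcribed pseudogene. Psmb7-ps2, with 7 and 4 reads in siHells and 4 and 7 in siControl, was the single member below the low-count filter. The other 46 had at least 72 reads in each library, so none passed the filter through its higher group alone.

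The libraries came from primary mouse bone marrow-derived macrophages on day 2 of RANKL, the cytokine that starts osteoclast formation. In 2 siHells libraries the cells had received an siRNA against Hells, a chromatin remodelling ATPase of the SNF2 family, and in 2 siControl libraries a control siRNA. Both groups received RANKL, and no group without RANKL was part of the comparison. The labels do not say whether the libraries came from separate animals or cultures. Each p-value therefore reflects the spread between these libraries alone, which may be technical.

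The 26S proteasome degrades proteins tagged with ubiquitin. Its 20S core is a barrel of outer alpha rings, which gate the entry, and inner beta rings, which carry the cutting sites. The 19S particle caps the barrel. Its base holds a ring of ATPases that unfold the substrate, and its lid removes the ubiquitin. In osteoclast precursors the proteasome destroys the inhibitors that hold NF-kB in the cytoplasm after RANKL binds its receptor, and inhibitors of the core are known to block osteoclast formation.

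The setting of the comparison was as follows. Libraries held 48873635 to 55642819 reads. Hells, the siRNA target, had 15.2 and 14.6 CPM (read counts scaled to library size with TMM factors) in siHells, against 29.4 and 30.0 CPM in siControl (log2 fold change -0.99, SE 0.068, adjusted p = 5.96e-09 by edgeR, Benjamini-Hochberg adjusted over all genes with its quasi-likelihood test, as for each gene below). Of 15651 genes tested, 29.5% were called lower and 29% higher in siHells at an adjusted p below 0.05, together 58.5%. The median log2 fold change over all genes was 0.00, with quartiles at -0.35 and 0.34. The osteoclast markers were lower in 9 of 9 cases, with a summed level of 1376 to 1416 CPM in siHells and 8588 to 8653 CPM in siControl. Macrophage markers were higher in 7 of 8 cases, summing to 23270 to 23960 CPM in siHells and 15600 to 15740 CPM in siControl. Stromal markers summed to 1756 to 1786 CPM in siHells, and to 998 to 1021 CPM in siControl. Of these 8 markers 5 were called higher, Col1a1, Col1a2 and Acta2 being the most abundant, Col3a1 was called lower, and Lepr and Pecam1 were not called. Neutrophil markers summed to 385 to 409 CPM in siHells and 481 to 488 CPM in siControl. The 3 tested markers of erythroid cells and megakaryocytes, mostly Pf4, which macrophages also express, summed to 159 to 162 CPM in siHells and 47.5 to 51.0 CPM in siControl. The few tested markers of dendritic, B and T or NK cells summed to at most 11.1 CPM in any library, and most defining markers of these types, such as Cd3e, were not analysed here. The part of these shifts in the proteasome differences was not tested. In bulk RNA, fewer cells of a type and less RNA per cell cannot be told apart.

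Most proteasome genes were modestly lower in siHells. Of the 46 tested members, 37 were called lower, 80.4% against the 29.5% of all genes called lower. Another 4 were called higher, 8.70% against the 29% of all genes called higher, and 5 were not called. The median log2 fold change over the 46 members was -0.25, a decrease set beside the all-gene median of 0.00. The summed level was 4213 and 4108 CPM in siHells, against 4936 and 4961 CPM in siControl. Both siHells libraries thus lay below both siControl libraries, by 15.9% on average (exact two-sided permutation p = 0.333, the smallest that 2 libraries against 2 allow). As a share of all deposited reads, the 47 members took 0.411% and 0.401% in siHells and 0.507% and 0.508% in siControl.

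**Figure D1:**
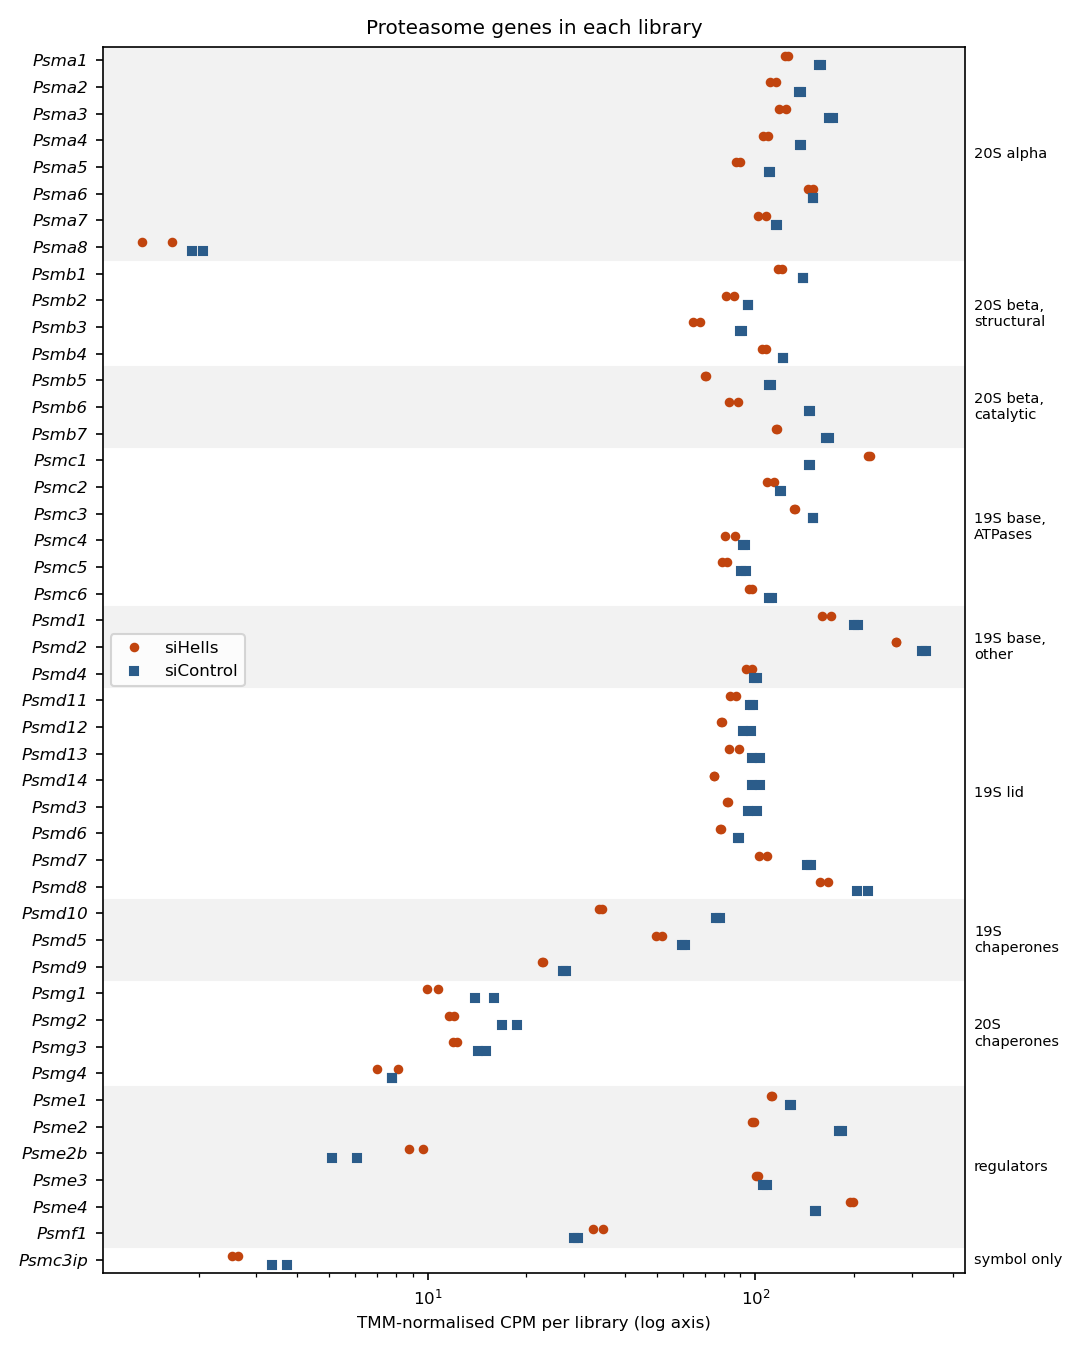
TMM-normalised CPM (x axis, logarithmic) of the 46 tested members in each library, in rows by role, with siHells libraries as circles and siControl libraries as squares. In most rows the siHells pair lies to the left of the siControl pair by a small step, and Psmc1, Psme2b, Psme4 and Psmf1 lie to the right.

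The size of the falls was small for most genes. Of the tested members, 15 lay below the lower quartile of all log2 fold changes, 28 between the quartiles and 3 above the upper quartile. Only 4 called members were lower by more than 1.5-fold, namely Psmd10, Psme2, Psmb6 and Psmb5. Of all 15651 genes tested, called or not, 14.5% were lower by more than 1.5-fold. Another 2 called members were higher by more than 1.5-fold, Psmc1 and Psme2b. The share of all genes higher by that step is not given here, and the difference of Psme2b is uncertain, as described below. Psmb5 was under that step with the exon length trend removed (log2 fold change -0.45, where Psmb7 had -0.51), and Psmc1 with library totals (0.53). The groups did not overlap in 45 of 46 members, against 78.5% of all genes tested. In 41 the siHells libraries were the lower ones, against 39.4% of all genes, and in 4 the higher ones, against 39.1%. Psmg4 was the member whose groups overlapped.

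In the reported fit, the largest falls within the core were at the cutting sites. The smallest of them, Psmb7 at a log2 fold change of -0.52, lay close to Psma3, which is not catalytic, at -0.49. With the exon length trend removed, Psmb5 was at -0.45. Psmb6, the caspase-like subunit, had 88.3 and 83.3 CPM in siHells, against 146 and 147 CPM in siControl (log2 fold change -0.77, SE 0.040, adjusted p = 2.24e-10). Psmb5, the chymotrypsin-like subunit and the target of the drug bortezomib, had 70.8 and 69.9 CPM in siHells, against 112 and 110 CPM in siControl (log2 fold change -0.66, SE 0.040, adjusted p = 1.45e-09). In both genes the libraries of a group lay close together and the groups far apart.

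Psmb7, the trypsin-like subunit, had 116 and 115 CPM in siHells, against 164 and 167 CPM in siControl (log2 fold change -0.52, SE 0.036, adjusted p = 5.89e-09). In GENCODE M21 coordinates of GRCm38, Psmb6 lies on chromosome 11 at 70525367 to 70527858, Psmb5 on chromosome 14 at 54614119 to 54618022 and Psmb7 on chromosome 2 at 38588036 to 38644087. Exons of Psmb7 share 405 bases with Nek6 on the other strand, and the strand setting of the counting is not given in the sources used here. Psmb5 has a processed pseudogene copy, Gm3375, at 98.9% identity over 796 bases, and that row was also lower, with 152 and 145 reads in siHells and 292 and 213 in siControl. Psmb11, the catalytic subunit of the thymus, was not analysed here.

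The structural beta subunits fell as well, all 4 of them, but by less. The log2 fold change was -0.45 for Psmb3 (adjusted p = 3.35e-07, SE 0.044), and Psmb1, Psmb4 and Psmb2 had -0.23, -0.20 and -0.19. With the trend on exon length removed, Psmb2 was no longer called (log2 fold change -0.02, adjusted p = 0.697, edgeR). The trend on exon length was not removed for the ratio of the summed catalytic to the summed structural beta level. The ratio does not depend on library scaling. It was 0.722 and 0.729 in siHells and 0.942 and 0.954 in siControl, so the groups did not overlap (exact permutation p = 0.333, again the smallest possible).

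In the alpha ring, 6 of the 7 general subunits fell. Psma3 had 124 and 118 CPM in siHells, against 168 and 172 CPM in siControl (log2 fold change -0.49, adjusted p = 2.81e-08 by the quasi-likelihood test). Psma4, Psma1, Psma5 and Psma2 had log2 fold changes between -0.36 and -0.27, and Psma7 had -0.15. Psma6 stood apart, at 150 and 145 CPM in siHells and 150 and 150 CPM in siControl (log2 fold change -0.03, adjusted p = 0.572). With the trend on exon length removed, Psma6 was called higher (log2 fold change 0.13, adjusted p = 0.00603, edgeR), and with library totals in place of TMM it was called lower (-0.10, adjusted p = 0.0263). Psma8, which replaces Psma7 in the testis, was at 1.66 and 1.34 CPM in siHells and 1.91 and 2.06 CPM in siControl and was not called (adjusted p = 0.127).

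**Figure D2:**
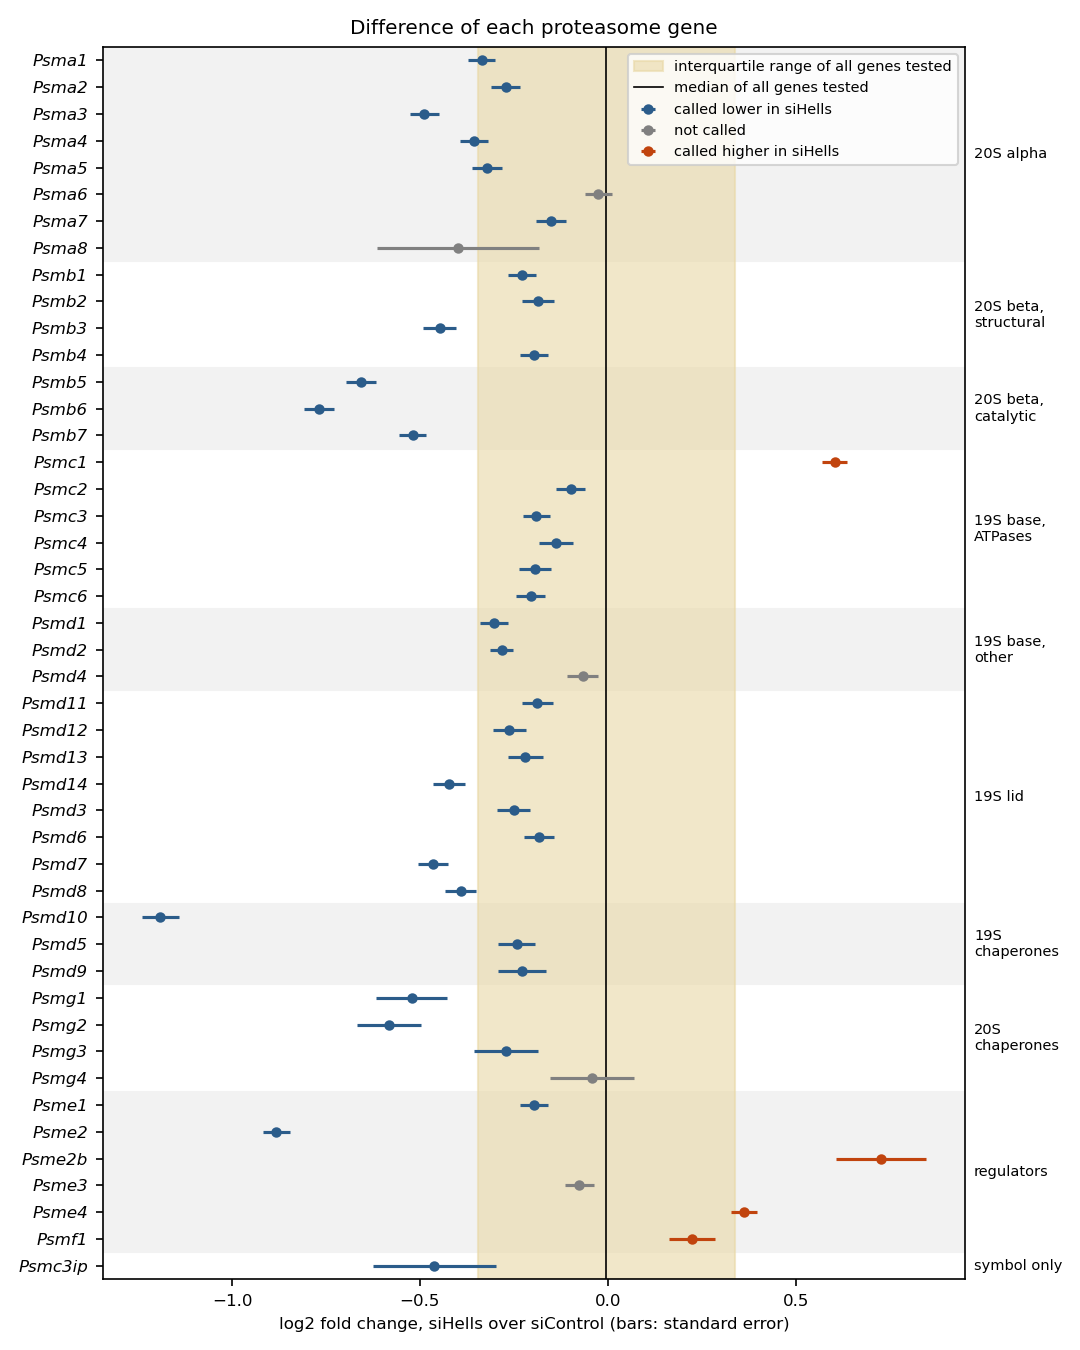
Log2 fold change of siHells over siControl (x axis, with standard errors) for the 46 tested members by role, blue where called lower, red where called higher and grey where not called. The band is the interquartile range of all 15651 genes tested, from -0.35 to 0.34, and the line is their median. Most members lie on the left side of the band, Psmd10 and Psme2 lie far below it, and Psmc1, Psme2b and, by a small margin, Psme4 lie above it.

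In the 19S base, Psmc1 went against every other subunit called. Psmc1, an ATPase known from yeast for opening the gate of the core, had 220 and 224 CPM in siHells, against 146 and 146 CPM in siControl (log2 fold change 0.60, SE 0.034, adjusted p = 4.50e-10). It was the single gene of the 31 general core and 19S subunits called higher, while 28 were called lower. That is 3.23% higher and 90.3% lower, beside 29% and 29.5% of all genes tested. The other 5 ATPase genes fell by less than 1.2-fold, with log2 fold changes from -0.21 for Psmc6 to -0.10 for Psmc2. Exons of Psmc3 (-0.19) share 215 bases with Slc39a13 on the other strand. Slc39a13 had 41.2 CPM in siHells and 83.3 CPM in siControl (log2 fold change -1.02). The part of the shared bases in the difference of Psmc3 was not tested. Psmc4 and Psmc5 lost their calls with the exon length trend removed (adjusted p = 0.0902 and 0.247, edgeR), and Psmc4 also without replicate 2 of either group (0.113 without that of siControl, 0.129 without that of siHells).

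Relative to the summed level of those 5, Psmc1 stood at 0.430 and 0.453 in siHells and at 0.260 and 0.258 in siControl. Together the 6 ATPase genes summed to 732 and 718 CPM in siHells and 705 and 715 CPM in siControl. Psmc1 lies on chromosome 12 at 100110154 to 100123405 and shares no exonic bases with another gene of the annotation. It has processed pseudogene copies, of which Gm9575 is in the table with 13 and 2 reads in siHells and 6 and 5 in siControl, far below Psmc1. The log2 fold change of Psmc1 stayed between 0.53 and 0.66 over all alternatives. These covered scaling, filter and test, removal of trends on exon length and GC content, and each library left out. The call of Psmc2 was weak and was lost under several alternatives, as with a DESeq2 Wald test (adjusted p = 0.105, over settings up to 0.23).

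The non-ATPase subunits of the base include the scaffolds Psmd1 and Psmd2, which fell to log2 fold changes of -0.30 and -0.28, and the ubiquitin receptor Psmd4, which had -0.07 and was not called (adjusted p = 0.174, edgeR). With library totals Psmd4 was called lower (-0.14, adjusted p = 0.00835, edgeR). All 8 lid genes fell. Psmd14, the enzyme that strips ubiquitin chains, had 74.9 and 74.6 CPM in siHells, against 97.4 and 103 CPM in siControl (log2 fold change -0.42, SE 0.043, adjusted p = 5.68e-07). Its binding partner Psmd7 had a log2 fold change of -0.47 and the lid subunit Psmd8 had -0.39. The remaining lid genes Psmd12, Psmd3, Psmd13, Psmd11 and Psmd6 lay between -0.26 and -0.18. Exons of Psmd13 share 342 bases with Sirt3 on the other strand, and Psmd11 has near-identical copies.

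The summed core was lower by more than the summed cap, a difference that was small once 4 genes, picked with the values seen, were left out. The 14 general core genes summed to 1475 and 1430 CPM in siHells and 1842 and 1850 CPM in siControl. The 17 genes of the 19S particle summed to 2030 and 1981 CPM in siHells and 2271 and 2282 CPM in siControl. The ratio of these sums was 0.727 and 0.722 in siHells and 0.811 in both siControl libraries (exact permutation p = 0.333). Without Psmc1 in the cap it was 0.815 and 0.813 in siHells and 0.867 and 0.866 in siControl. Without Psmc1 and the 3 catalytic subunits it was 0.663 and 0.661 in siHells and 0.669 and 0.668 in siControl, a log2 difference of -0.01. The 3 catalytic subunits had the largest falls of the core, and Psmc1 was the cap gene that rose. Leaving out genes picked in this way shifts the ratio in this direction by construction, so it is a description only. Per kilobase of the principal transcript, the core genes ranged from 38.9 CPM for Psma2 to 141 CPM for Psma6 in siHells and from 46.9 CPM for Psma2 to 183 CPM for Psmb6 in siControl. The highest level per kilobase of the core genes was thus that of Psma6 in siHells and that of Psmb6 in siControl. In the 19S particle the lowest level per kilobase was that of Psmd11 in both groups, and the highest was that of Psmc1 in siHells, at 140 CPM, and of Psmd8 in siControl, at 138 CPM.

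The largest fall among the members was in an assembly chaperone. Psmd10, also called gankyrin, escorts an ATPase during assembly of the base and is known as an oncoprotein in liver. It had 33.4 and 34.0 CPM in siHells, against 78.1 and 75.6 CPM in siControl, a 2.28-fold decrease (log2 fold change -1.19, SE 0.049, adjusted p = 1.19e-11). The other chaperones of the base, Psmd5 and Psmd9, had log2 fold changes of -0.24 and -0.23. The ratio of Psmd10 to their sum was 0.450 and 0.471 in siHells and 0.908 and 0.872 in siControl. Psmd10 lies on the X chromosome at 140948429 to 140956728, with no exonic overlap in the annotation.

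The chaperones that build the alpha ring act in pairs. Psmg1 and Psmg2 had log2 fold changes of -0.52 (SE 0.095, adjusted p = 0.000224) and -0.58 (SE 0.086, adjusted p = 2.97e-05). In the second pair, Psmg3 had -0.27 (adjusted p = 0.0122) and Psmg4 had -0.04 (adjusted p = 0.768). Psmg4 had 8.12 and 7.01 CPM in siHells, on either side of 7.80 and 7.77 CPM in siControl. Relative to the core, the 4 chaperones summed to 0.0285 and 0.0291 in siHells and 0.0286 and 0.0311 in siControl, so these ratios overlapped. Psmg3 lost its call without siControl replicate 2 (adjusted p = 0.100, edgeR).

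The regulators that dock on the core moved in both directions. Of 6 genes, 2 were lower and 3 higher, beside 29.5% and 29% of all genes, and 1 of the 3 was Psme2b, whose difference is uncertain. Psme1 and Psme2 form the ring that interferon gamma induces in many cells. Psme2 had 99.1 and 97.8 CPM in siHells, against 179 and 183 CPM in siControl (log2 fold change -0.88, SE 0.036, adjusted p = 1.18e-11). Its partner Psme1 had 112 and 111 CPM in siHells, against 128 and 128 CPM in siControl (log2 fold change -0.20, adjusted p = 0.000293). The ratio of Psme2 to Psme1 CPM was 0.885 and 0.879 in siHells and 1.41 and 1.43 in siControl. Per kilobase, Psme2 was above Psme1 in all 4 libraries, at a mean of 102 against 100.4 CPM in siHells and of 189 against 115 CPM in siControl.

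Psme2b, an almost identical copy of Psme2 on chromosome 11, appeared to go the other way, with 525 and 470 reads in siHells and 281 and 304 in siControl (log2 fold change 0.73, SE 0.12, adjusted p = 9.24e-05). The copies share 99.4% identity over 794 bases, so reads could have been split between them and the difference of Psme2b is uncertain. Psme2b also shares 41 exonic bases on the same strand with 9930111J21Rik1, which had 52.6 CPM in siHells and 29.8 CPM in siControl (log2 fold change 0.82). It held 8.57% of the reads of both genes in siHells and 2.98% in siControl. The sum of both genes was still lower, at 108 ± 1.60 CPM in siHells and 187 ± 3.59 CPM in siControl (SD, n = 2 each).

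Psme4, a large nuclear activator known for histone degradation in male germ cells, had 198 and 194 CPM in siHells, against 153 and 152 CPM in siControl (log2 fold change 0.36, SE 0.034, adjusted p = 2.12e-07). It lies on chromosome 11 at 30771726 to 30880361. Relative to the core it stood at 0.134 and 0.136 in siHells and 0.0829 and 0.0824 in siControl. Psmf1, first described as an inhibitor of the core, had 34.4 and 31.9 CPM in siHells, against 27.9 and 28.8 CPM in siControl (log2 fold change 0.22, adjusted p = 0.00600), and lost its call without siControl replicate 1 (adjusted p = 0.0592, edgeR). Psme3, the activator of the nucleus, had a log2 fold change of -0.08 and was not called (adjusted p = 0.106). With library totals in place of TMM, Psme3 was called lower (log2 fold change -0.15, adjusted p = 0.00401, over settings from -0.15 to -0.06). Psmc3ip, the recombination cofactor, had 137 and 141 reads in siHells and 205 and 168 in siControl (log2 fold change -0.46, adjusted p = 0.0249) and lost its call with a DESeq2 Wald test (adjusted p = 0.0995, over settings up to 0.143).

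Each standard catalytic subunit has an immunoproteasome counterpart that can take its place. Per kilobase, Psmb9 made up 20.5% and 21.7% of Psmb9 plus Psmb6 in siHells, against 14.9% and 15.0% in siControl. Psmb10 made up 35.2% and 36.3% of Psmb10 plus Psmb7 in siHells, against 27.8% and 27.3% in siControl. Psmb8 made up 45.4% and 44.8% of Psmb8 plus Psmb5 in siHells, against 41.2% and 42.3% in siControl.

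All 3 immunoproteasome shares were higher in both siHells libraries. The counterparts themselves were not called higher. Psmb8 and Psmb9 fell, to log2 fold changes of -0.46 and -0.16 (adjusted p = 5.97e-08 and 0.0163, edgeR), and Psmb10 had 0.03 (adjusted p = 0.593). Exact shares depend on the transcript length used, and with the union of exons they were 18.8% in siHells and 13.2% in siControl for Psmb9, 55.8% in siHells and 46.3% in siControl for Psmb10, and 28.3% in siHells and 25.7% in siControl for Psmb8. Exons of Psmb9 share 212 bases with Tap1, its head-to-head neighbour on the other strand. Tap1 had 109 CPM in siHells and 83.7 CPM in siControl (log2 fold change 0.375). The part of the shared bases in the level and share of Psmb9 was not tested.

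**Figure D3:**
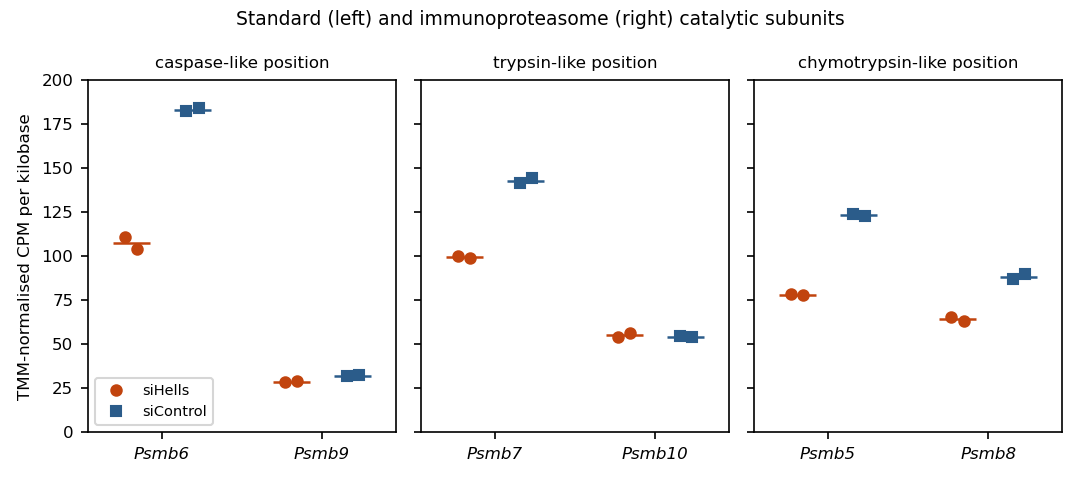
TMM-normalised CPM per kilobase of the principal transcript (y axis) for the 3 standard catalytic subunits and their immunoproteasome counterparts, with each library as a point, siHells left of siControl, and lines at group means. Psmb6, Psmb7 and Psmb5 are lower in siHells, Psmb9 and Psmb8 are lower by less, and Psmb10 has a mean of 55.4 in siHells and 54.3 in siControl.

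Upstream sequences are shown for both catalytic genes with the largest falls, for Psmd10, which fell most among the members, and for Psmc1, which rose. They are from RefSeq on GRCm38.p6, 5′ to 3′ on the strand of the gene, and each ends before the earlier of the gene's RefSeq and GENCODE M21 starts. That left out the last 27, 17 and 48 bases before the RefSeq start of Psmb5, Psmd10 and Psmc1, while the Psmb6 sequence runs to its RefSeq start, upstream of the GENCODE start given above. The 4 genes were chosen after their values were seen. Capitals mark TGACNNNGC, the core of the antioxidant response element that the proteasome activator NFE2L1 binds, and CCAAT, the box bound by NF-Y, which reads ATTGG on the other strand.
Psmb5 chr14:54618023-54618245 minus: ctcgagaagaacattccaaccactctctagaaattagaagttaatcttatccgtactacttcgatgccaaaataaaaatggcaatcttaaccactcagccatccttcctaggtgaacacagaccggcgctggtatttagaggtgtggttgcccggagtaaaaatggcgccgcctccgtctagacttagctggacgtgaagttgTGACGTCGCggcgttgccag
Psmb6 chr11:70525107-70525356 plus: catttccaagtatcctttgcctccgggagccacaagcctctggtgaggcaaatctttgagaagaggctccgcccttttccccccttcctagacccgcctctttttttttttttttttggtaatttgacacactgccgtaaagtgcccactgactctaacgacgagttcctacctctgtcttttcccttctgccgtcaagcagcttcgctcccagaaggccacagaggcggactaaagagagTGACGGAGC
Psmd10 chrX:140956729-140956961 minus: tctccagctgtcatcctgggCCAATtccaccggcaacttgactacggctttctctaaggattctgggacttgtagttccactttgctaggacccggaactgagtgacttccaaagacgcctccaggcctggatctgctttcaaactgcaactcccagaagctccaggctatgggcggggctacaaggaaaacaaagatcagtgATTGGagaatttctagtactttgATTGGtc
Psmc1 chr12:100109952-100110153 plus: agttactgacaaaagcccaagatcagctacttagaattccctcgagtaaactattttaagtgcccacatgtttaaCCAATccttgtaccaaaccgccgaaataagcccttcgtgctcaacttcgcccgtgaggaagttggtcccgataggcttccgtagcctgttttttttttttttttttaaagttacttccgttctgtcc

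Psmb5 and Psmb6 each hold a TGACNNNGC match, and Psmd10 holds 3 CCAAT boxes and Psmc1 1. RefSeq promoter windows, from 250 bases before to 50 bases after the start, were at hand for 38 of the 47 members. Searched on both strands, TGACNNNGC was present for 6 of the 37 proteasome components with a window, 16.2%, against 16.8% of the tested genes with a window and 12.4% of all promoters. The 6 were Psmb5, Psmb6, Psmc6, Psmd9 and Psmd12, all called lower, and Psme4, called higher. CCAAT was present for 12 of the 37, 32.4%, against 42.7% of the tested genes and 37.4% of all promoters. Neither share was above that of the tested genes. No printed stretch holds both motifs, and a match is a description of the letters only.

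Genes that work with the proteasome were taken from lists that hold no members. Among other subunits and proteins bound to the particle, 8 of 9 fell and 1 rose, and the median log2 fold change was -0.34. The shares called were 88.9% lower and 11.1% higher, beside 29.5% and 29% of all genes. The subunits Adrm1, a ubiquitin receptor, and Sem1, of the lid, had -0.13 each (adjusted p = 0.0263 and 0.0186, edgeR). Usp14, a deubiquitinase that docks on the base, had 101 and 98.7 CPM in siHells, against 144 and 152 CPM in siControl (log2 fold change -0.57, SE 0.039, adjusted p = 5.96e-09). Zfand5, which binds the particle and raises its activity, had 165 and 187 CPM in siHells, against 295 and 292 CPM in siControl (log2 fold change -0.74, SE 0.050, adjusted p = 2.37e-07). Its relative Zfand2b was the gene that rose (0.24, adjusted p = 0.0249).

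Among 3 further assembly and import factors, Pomp, which matures the core, fell (log2 fold change -0.22, adjusted p = 0.000163, edgeR). Ecpas had -0.06 and Akirin2, which brings the proteasome into the nucleus, had 0.13, and neither was called (adjusted p = 0.169 and 0.0514).

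Of 10 regulators of proteasome transcription, 3 were lower and 4 higher, beside 29.5% and 29% of all genes, so the list's counts lay near those of genes at large. Nfe2l1, which drives proteasome genes when the particle is short, had 168 and 165 CPM in siHells, against 179 and 187 CPM in siControl (log2 fold change -0.14, SE 0.036, adjusted p = 0.00439). Ddi2, the protease that activates the NFE2L1 protein, had 116 and 111 CPM in siHells, against 74.5 and 75.3 CPM in siControl (log2 fold change 0.60, SE 0.042, adjusted p = 7.40e-09). Ngly1, which removes its sugars, fell (-0.24). Of the small Maf partners, Mafg and Mafk rose (0.54 and 0.52) and Maff, at no more than 5.96 CPM in any library, fell (-0.83).

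Among genes that supply and activate ubiquitin, Ubb, which encodes a chain of ubiquitin, had 866 and 838 CPM in siHells, against 695 and 682 CPM in siControl, and rose (log2 fold change 0.31, adjusted p = 1.62e-07, edgeR). Rps27a, which encodes ubiquitin fused to a ribosomal protein, had 649 and 631 CPM in siHells, against 807 and 865 CPM in siControl, and fell (-0.39, adjusted p = 1.05e-07). The main activating enzyme Uba1 had 0.00 (adjusted p = 0.996) and the second, Uba6, fell (-0.28). Of 16 shuttle factors and p97 complex genes, 7 fell and 3 rose, which is 43.8% lower and 18.8% higher, beside 29.5% and 29% of all genes. Sqstm1, the p62 receptor, was at -0.55 and Vcp, the p97 ATPase, at -0.31. Ddi2 is on this list and on that of the transcription regulators.

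**Figure D4:**
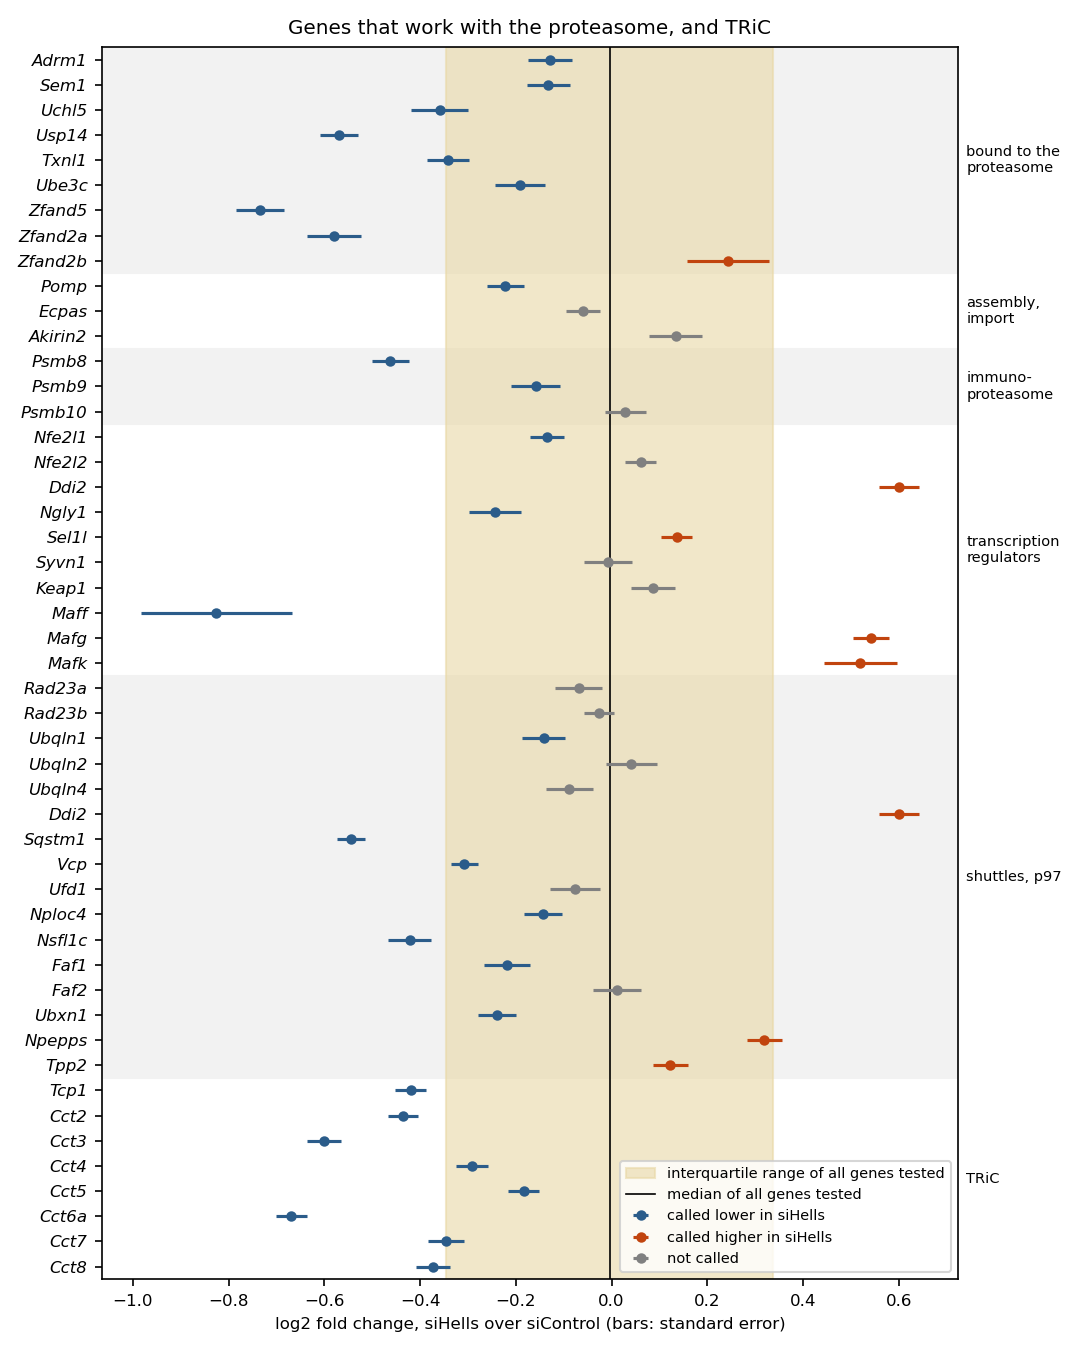
Log2 fold change of siHells over siControl (x axis, with standard errors) for genes that work with the proteasome and for the TRiC chaperonin, with the band and line as in the plot of members by role. Proteins bound to the particle and TRiC subunits lie mostly to the left, and the transcription regulators and shuttle factors lie on both sides.

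TRiC, the chaperonin that folds actin and tubulin, is another abundant complex of the cytosol, and it was set beside the proteasome. All 8 of its genes were called lower, beside 29.5% of all genes. Their median was -0.40 on the log2 scale, with a range from -0.67 for Cct6a to -0.18 for Cct5. The ratio of the summed core and 19S genes to the summed TRiC genes was 2.16 and 2.14 in siHells and 1.95 and 1.92 in siControl (exact permutation p = 0.333). The ratio was higher in both siHells libraries, so the proteasome sum was lower by less than the TRiC sum.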

How the data were processed

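Whole-number read counts per gene symbol were deposited by the authors as a single table covering 17194 symbols and 4 libraries, with no normalization. The lowest deposited count was 1, so genes with 0 reads in any library were not analysed here. FastQC, Trimmomatic 0.38, HISAT2 2.1.0, StringTie 2.1.3b, edgeR and build mm10 are named, without roles, per the submitters' processing notes. The sources used here give neither the annotation nor the strand setting. The labels' protocols name both a SMARTer and a TruSeq Stranded kit.

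Genes were kept by filterByExpr (minimum count 10, minimum total 15), which left 15651, and scaled by TMM. The edgeR 4.0.16 quasi-likelihood test (R 4.3.3, robust, group as the only term) was fitted to all genes, with Benjamini-Hochberg adjustment and calls at an adjusted p under 0.05. Every log2 fold change has siHells on top. The procedure was also run on simulated data with dispersions taken from these libraries, and the outcome is not given here. Depth was 48873635 to 55642819 counts per library. Replicates were not copies of each other (chi-square per gene of 6.26 in siHells and 3.45 in siControl).

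Levels per kilobase use the APPRIS principal transcript of GENCODE M21 (GRCm38), or the union of exons where a gene has none. The GENCODE annotation matched 91.7% of symbols and all 47 members. Exons of 14 members overlap another gene, and 10 have a copy elsewhere at 95% identity over at least 200 bases (BLAST of transcripts). Copies other than the Psme2 pair held 2 to 292 reads per library. Any member could be named, and outside the members the genes of the related lists, the cell type markers and Hells. Some genes of these lists are not reported here. Members and lists were chosen with earlier results of these data known. Alternatives were other scalings, filters and tests (limma 3.58.1, DESeq2 1.42.0), a replicate block, each library left out, a threshold of 0.01, and removal of trends on exon length and GC content. The exon-union length for catalytic shares and the core-to-cap ratios without Psmc1 and the catalytic subunits were chosen with the data already seen.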

Additional observations from a re-analysis of the deposited data

How the results depend on the processing

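The number of members called lower ranged from 33 at an adjusted p threshold of 0.01 to 40 with library totals, beside 37 in the reported fit, and from 34 to 36 with a library left out. The number called higher ranged from 3 to 5 over all alternatives. The median log2 fold change over members ranged from -0.32 with library totals to -0.22 without siControl replicate 2. Library totals also lowered the median over all genes, to -0.08. The member median minus that of all genes was -0.24 there, as in the reported fit. Among the 46 related genes tested, 24 were lower and 9 higher. These are 52.2% and 19.6%, beside 29.5% and 29% of all genes. With library totals, which lowered the all-gene median, 29 were lower and 5 higher. The share of all genes called with library totals is not given here. Psma6 turned to 0.13 and Psmg4 to 0.24 on the log2 scale with the exon length trend removed, where Psmb2, Psmc4 and Psmc5 lost their calls. With a library left out, Psma6 ranged from -0.047 to 0.002 and Psmg4 from -0.15 to 0.063. The cause was not tested. No member called in the reported fit changed sign. Replicates 1 and 2 share only a number. The deviations of same-numbered libraries correlated at 0.0393, and a fit with the replicate block called 36 members lower and 4 higher, with Psmc2 losing its call. It called 4586 genes lower and 4502 higher over the whole table, beside 4612 and 4541. With 2 libraries in each group, an exact test over libraries cannot pass 0.05, and tests with a library left out assume that the lone library varies like the other group.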
